A study of Mus musculus with 6 samples.

Results

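Chemokines are small secreted proteins that direct the migration of leukocytes, and interleukins, colony-stimulating factors and their relatives are secreted signals that control the growth, survival and activation of immune and stromal cells. Many of these genes are switched on within hours by the transcription factor NF-kB, often together with AP-1, C/EBP or STAT factors, from promoters and from enhancers placed up to many kilobases away. In adipose tissue, precursor cells and other stromal cells are a known source of several of them, among them Ccl2, Cxcl1, Cxcl12, Il6, Lif and Il33.

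The set holds the 51 protein-coding mouse genes whose symbol is Ccl or Cxcl followed by a number, together with Cx3cl1, Il1a, Il1b, Il6, Il11, Il33, Il34, Il15, Lif, Csf1, Csf2, Csf3, Tnf and Tslp, out of 21883 coding genes. Ccl21c lies on an unplaced scaffold and could not be given peaks, which left 50 members among 21770 placed genes. Open chromatin was profiled by ATAC-seq, a method that cuts accessible DNA with a transposase, in mouse brown pre-adipocytes labelled as cell line BAT. There were 3 libraries from day 1 of brown adipocyte differentiation and 3 from day 0, before it. The day 0 libraries are labelled WT, and the labels of the day 1 libraries give the differentiation and no genotype. The title of the study names deletion of RUNX1 or RUNX2 in adipocytes, and no library used here is labelled with a deletion. The labels name no inducing agents, and since they do not say that the 3 libraries of a day came from different cultures, p-values reflect variation among libraries that may be technical. In such bulk libraries, fewer cells with a site open and a site less open in each cell cannot be told apart.

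A peak is a stretch of DNA that the authors called as denser in sequenced fragments than its surroundings in that library. Each peak was given to the coding gene with the nearest annotated start or end, at most 100 kb from its summit, and is called a gene-end peak within 1 kb and a distal peak beyond that. The table of genes has no strand, and the start of a gene is named below only where the RefSeq promoter table gives it. Peaks of all libraries that overlapped were joined into regions, in mm10 coordinates. Nearness is a bookkeeping rule and does not show which gene a region acts on.

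Libraries differed in depth, with 4919755, 5603667 and 7302457 fragments at day 1 and 11011889, 8127635 and 9160156 at day 0, and with 12556 to 23274 peaks at day 1 and 39211 to 55511 at day 0. Day 1 replicate 3 stood apart, with the most fragments and the fewest peaks of its day. Results are therefore also given for equal lists, made by keeping from every library only the 12556 peaks with the best q values. Among 10 precursor markers, gene ends carried peaks at 4, 5 and 3 in day 1 libraries and at 6 in each day 0 library. Cd44 and Itgb1 were called in all 6 libraries, while the ends of Pdgfra, Dlk1, Cd34 and Thy1 had no peak in any. Among 12 immune cell markers, day 1 libraries had 1, 1 and 0 such genes and day 0 libraries 5, 4 and 4, with Cd14 and Cd68 called in all 3 day 0 libraries and in no day 1 library. Ptprc, Adgre1, Itgam, Cd3e, Csf1r, Fcgr1 and Laptm5 had no gene-end peak in any library. Of 8 endothelial markers, the Kdr end was called in 1 day 1 and 3 day 0 libraries and the other 7 had no such call. Summed over its list, the peaks nearest to these markers numbered 11 to 33 at day 1 and 55 to 71 at day 0 for precursor, 1 to 5 and 13 to 18 for immune, and 0 to 9 and 18 to 28 for endothelial genes. In these deposited lists the marker peaks move in the same direction as the members. In equal lists, precursor gene ends with a peak numbered 2, 3 and 3 at day 1 and 4, 2 and 3 at day 0. Immune markers then had 1, 1 and 0 at day 1 and 1 in each day 0 library, and endothelial markers 0 in every library. The part of the marker genes in the results below was not tested.

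The proximal promoters of 6 members show what lay under, or beside, the gene-end peaks. They were chosen because Cxcl1, Il6 and Csf1 had a start called on both days, Cxcl10 and Cx3cl1 had a start called at day 0 and in no day 1 library, and Cxcl2, the close relative and neighbour of Cxcl1, had no gene-end peak in any list. Each sequence is the 250 bases before the annotated start from RefSeq, in mm10, read 5′ to 3′ on the gene's strand. They lie at chr5:90890995-90891244 on the plus strand for Cxcl1, chr5:90903649-90903898 plus for Cxcl2, chr5:92348890-92349139 minus for Cxcl10, chr5:30012864-30013113 plus for Il6, chr3:107760470-107760719 minus for Csf1 and chr8:94771930-94772179 plus for Cx3cl1. Capitals mark matches to the degenerate NF-kB consensus on either strand, where overlapping matches run together, and in Cx3cl1, which has none, the TATA box letters TATAAA.
Cxcl1: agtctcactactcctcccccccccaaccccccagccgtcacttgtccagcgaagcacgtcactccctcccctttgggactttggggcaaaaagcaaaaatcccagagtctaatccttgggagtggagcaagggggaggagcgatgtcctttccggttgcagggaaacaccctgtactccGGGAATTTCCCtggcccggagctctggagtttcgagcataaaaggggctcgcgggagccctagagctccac
Cxcl2: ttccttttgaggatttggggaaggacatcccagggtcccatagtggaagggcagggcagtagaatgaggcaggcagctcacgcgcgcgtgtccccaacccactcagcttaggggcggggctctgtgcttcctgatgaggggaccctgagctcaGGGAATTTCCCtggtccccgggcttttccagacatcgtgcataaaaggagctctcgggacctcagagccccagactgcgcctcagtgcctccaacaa
Cxcl10: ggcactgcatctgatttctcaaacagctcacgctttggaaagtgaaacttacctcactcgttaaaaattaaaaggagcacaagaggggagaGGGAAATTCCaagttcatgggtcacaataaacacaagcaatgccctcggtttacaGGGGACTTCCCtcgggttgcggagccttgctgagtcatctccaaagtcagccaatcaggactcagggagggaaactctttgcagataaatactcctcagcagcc
Il6: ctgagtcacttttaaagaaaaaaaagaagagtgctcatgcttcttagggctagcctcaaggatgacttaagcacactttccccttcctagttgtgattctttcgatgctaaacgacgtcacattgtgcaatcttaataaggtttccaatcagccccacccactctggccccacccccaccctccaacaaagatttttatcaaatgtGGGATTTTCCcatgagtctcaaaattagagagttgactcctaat
Csf1: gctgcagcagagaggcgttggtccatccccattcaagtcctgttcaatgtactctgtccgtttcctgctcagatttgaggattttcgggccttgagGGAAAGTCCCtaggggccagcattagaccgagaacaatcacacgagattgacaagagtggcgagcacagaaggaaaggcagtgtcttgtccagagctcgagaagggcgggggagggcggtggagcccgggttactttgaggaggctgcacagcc
Cx3cl1: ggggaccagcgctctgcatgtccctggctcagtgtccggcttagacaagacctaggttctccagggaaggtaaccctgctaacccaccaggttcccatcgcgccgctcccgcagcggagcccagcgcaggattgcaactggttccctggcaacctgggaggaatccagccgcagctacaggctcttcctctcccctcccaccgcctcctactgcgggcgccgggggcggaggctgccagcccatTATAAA
The Cxcl1 and Cxcl2 windows share the 14-base run GGGAATTTCCCTGG, which starts 71 bases before the start of Cxcl1 and 97 bases before that of Cxcl2. Cxcl10 has matches 159, 104 and 103 bases before its start, Il6 has a match 44 bases before its start, and Csf1 has a match 154 bases before its start. A match is a description of the letters and does not show binding.

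Promoter windows were given for 36 of the 50 placed members, as 44 windows since some genes have several starts. The NF-kB consensus was found in 22.7% of these member windows against 7.91% of 21262 coding gene windows, and it was added after the sequences had been seen. A looser form of it was found in 47.7% against 51.8%. The AP-1 letters TGANTCA were found in 18.2% against 6.13%, the C/EBP letters TTNNGNAA in 52.3% against 34.1%, the TATA letters TATAAA in 34.1% against 11.6%, the RUNX letters TGTGGT in 9.09% against 12.4% and the STAT letters TTCNNNGAA in 4.55% against 6.58%. All were searched on both strands.

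Fewer members had an open gene end at day 1 than at day 0 in every library. A gene-end peak was called at 5, 5 and 1 members in the day 1 libraries and at 11, 12 and 10 members in the day 0 libraries, means of 3.67 ± 2.31 and 11 ± 1 (SD over 3 libraries per day; two-sided exact permutation p = 0.1, the smallest that 3 libraries against 3 can give). The days did not overlap. These were 10%, 10% and 2% of the members in day 1 libraries and 22%, 24% and 20% in day 0 libraries. The same shares of all coding genes came to 34.4%, 37.2% and 27.8% in day 1 libraries and 45.5%, 41.9% and 40% in day 0 libraries. Over the promoter windows alone, a peak lay on 3, 3 and 1 of 36 members in day 1 libraries and on 7 in each day 0 library, that is on 8.33%, 8.33% and 2.78% of them in day 1 libraries and 19.4% in each day 0 library. Over all coding genes with a window the shares were 37.8%, 41.2% and 30.7% in day 1 libraries and 48.4%, 45.2% and 43% in day 0 libraries. Ccl25 is among the members counted in each of the 6 libraries. In the equal lists a gene-end peak was left at 4, 1 and 1 members in day 1 libraries and at 4 members in each day 0 library (two-sided exact permutation p = 0.4), so the groups then met. For all coding genes the order of the days was the opposite there, with 27.5%, 29.3% and 27.8% in day 1 libraries and 23.3%, 23.2% and 22.2% in day 0 libraries.

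Distal peaks nearest to members were also fewer. Day 1 libraries had 24, 27 and 5 of them and day 0 libraries 100, 73 and 68 (means of 18.7 ± 11.9 and 80.3 ± 17.2, SD over 3 libraries per day; two-sided exact permutation p = 0.1). Distal peaks of all coding genes fell as well, with 10414, 12553 and 5460 in day 1 libraries and 36486, 26438 and 24491 in day 0 libraries. Gene-end peaks of all coding genes numbered 8085, 8717 and 6343 at day 1 and 11658, 10428 and 10102 at day 0. Day 1 lists thus held a larger part of gene-end peaks, which bears on the rate below. Per 10000 peaks of the library's own list, all member peaks came to 14.9, 13.7 and 4.78 in day 1 libraries and 20.7, 20.7 and 21.2 in day 0 libraries (means of 11.2 ± 5.56 and 20.9 ± 0.26, SD over 3 libraries per day; two-sided exact permutation p = 0.1). In equal lists they came to 11.2, 9.56 and 4.78 in day 1 libraries and 14.3, 15.1 and 17.5 in day 0 libraries (two-sided exact permutation p = 0.1), and the days again did not overlap. With equal lists of 20069 peaks, made without day 1 replicate 3, the rate was 14.9 and 14 in day 1 libraries and 15.9, 16.9 and 20.4 in day 0 libraries, a difference of -3.32 (two-sided exact permutation p = 0.2). The day 0 mean was 20.9 in deposited lists, 17.8 in these and 15.7 in the shortest, so the rate itself varies with list length. The equal lists of 12556 peaks held means of 8.67 distal member peaks at day 1 and 15.7 at day 0. At 20069 peaks they averaged 24.5 at day 1 and 27 at day 0 (two-sided exact permutation p = 0.5), while leaving that library out of the deposited lists gave 25.5 at day 1 and 80.3 at day 0. The size of the distal difference thus depends on list length.

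**Figure D1:**
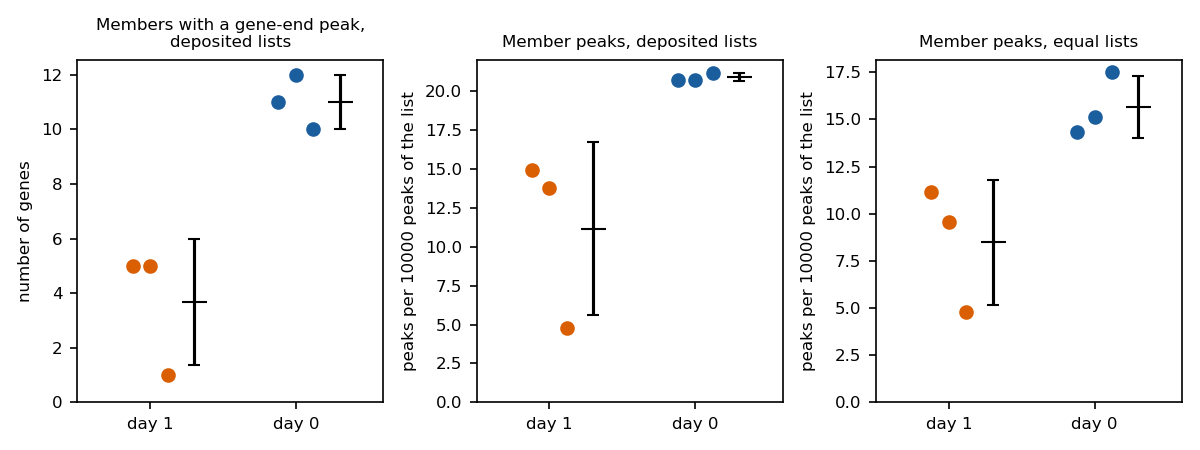
Values per library for the chemokine and interleukin genes, day 1 on the left of each panel: members with a gene-end peak in deposited lists (number of genes), and member peaks per 10000 peaks of the list in deposited and in equal lists. Points are libraries and bars the mean ± SD (n = 3 per day); all day 1 points lie below all day 0 points in each panel.

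Of the 143 regions nearest to members, 35 had a peak in 3 of 3 day 0 and 0 of 3 day 1 libraries, and 0 were the mirror case. Over all regions within 100 kb of a coding gene, 16.6% were of the first kind and 0.589% of the second. At gene ends, 6 of 19 member regions were day 0 only against a background of 5.94% of gene-end regions of all genes, and 0 were day 1 only against 0.173%. Among the 124 distal regions 29 were day 0 only (23.4%), close to the background of 19.5%, and 0 were day 1 only against 0.702%. None of the 19 gene-end regions was called in all 6 libraries, against 43.6% of gene-end regions of all genes. In equal lists, 6 of 37 member regions were day 0 only against a background of 8.05%, and 0 were day 1 only against 5.73%. Split by place, 1 of 8 gene-end regions and 5 of 29 distal regions were then day 0 only, against 0.79% and 12.5%, and 0 of either kind were day 1 only, against 4.52% and 6.46%. Among these, the regions at the Ccl2 end, near Csf2 and near Cxcl15 had day 1 peaks in deposited lists and were not among the 35.

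**Figure D2:**
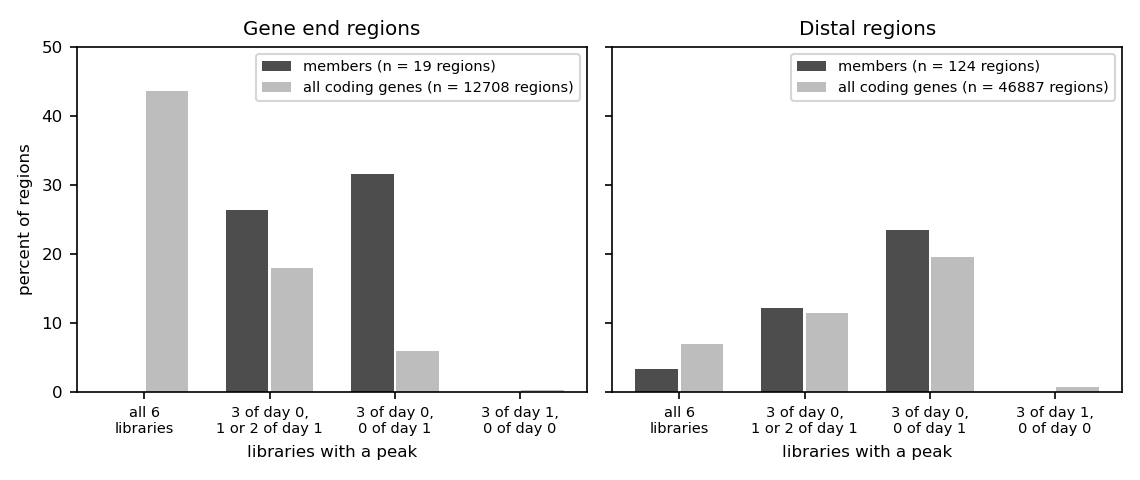
Percent of regions by the libraries that called them, for gene-end regions (left) and distal regions (right), with chemokine and interleukin genes as dark bars and all coding genes as light bars. At gene ends no member region was called in all 6 libraries, against 43.6% for all coding genes, and distal shares lay closer together.

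Depth bears on what a missing day 1 peak shows. Member gene-end peaks were lower than gene-end peaks of all genes, with a median summit height of 9.5, 9 and 5 fragments at day 1 and 20, 17 and 16 at day 0, against 16, 18 and 14 at day 1 and 27, 23 and 18 at day 0 for all genes. Scaled to the fragment number of day 1 replicate 1, the 35 day 0 only regions would have had summits of 4.16 to 21.4 fragments, with a median of 7.45. In 31 of the 35 this was above 5 fragments, the 5th percentile of that library's peaks. For day 1 replicates 2 and 3 the numbers were 32 and 35. The scaling used fragment number alone and took the part of fragments that falls in peaks as equal between libraries, which was not tested. Day 1 replicate 3, with all 35 above, had 7302457 fragments and 12556 peaks. Day 1 replicate 1 had 4919755 fragments and 20069 peaks. The scaled summits therefore do not show that an equally open region would have been called at day 1.

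Of the 39 members with any peak, 18 had fewer peaks in every day 1 library than in every day 0 library, against a background of 32.7% of coding genes with a peak, and 0 had more, against 0.213%. In equal lists this was so for 5 of 24 members, Ccl2, Csf2, Cx3cl1, Cxcl10 and Cxcl15, against a background of 6.51%, and 0 had more, against 6.06%. The median member had 0.333 peaks at day 1 and 1.67 at day 0, with a median difference of -1.33, and the median coding gene had 1 and 1.67, with a median difference of -1. No peak of any library was nearest to the other 11 placed members, Ccl12, Ccl19, Ccl21a, Ccl21b, Ccl21d, Ccl27b, Csf3, Cxcl16, Cxcl3, Cxcl5 and Tnf. The Ccl21 and Ccl27 genes lie in a repeated stretch of chromosome 4 with near-identical copies, where reads may not align to a single place, so that a missing peak there is uncertain.

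**Figure D3:**
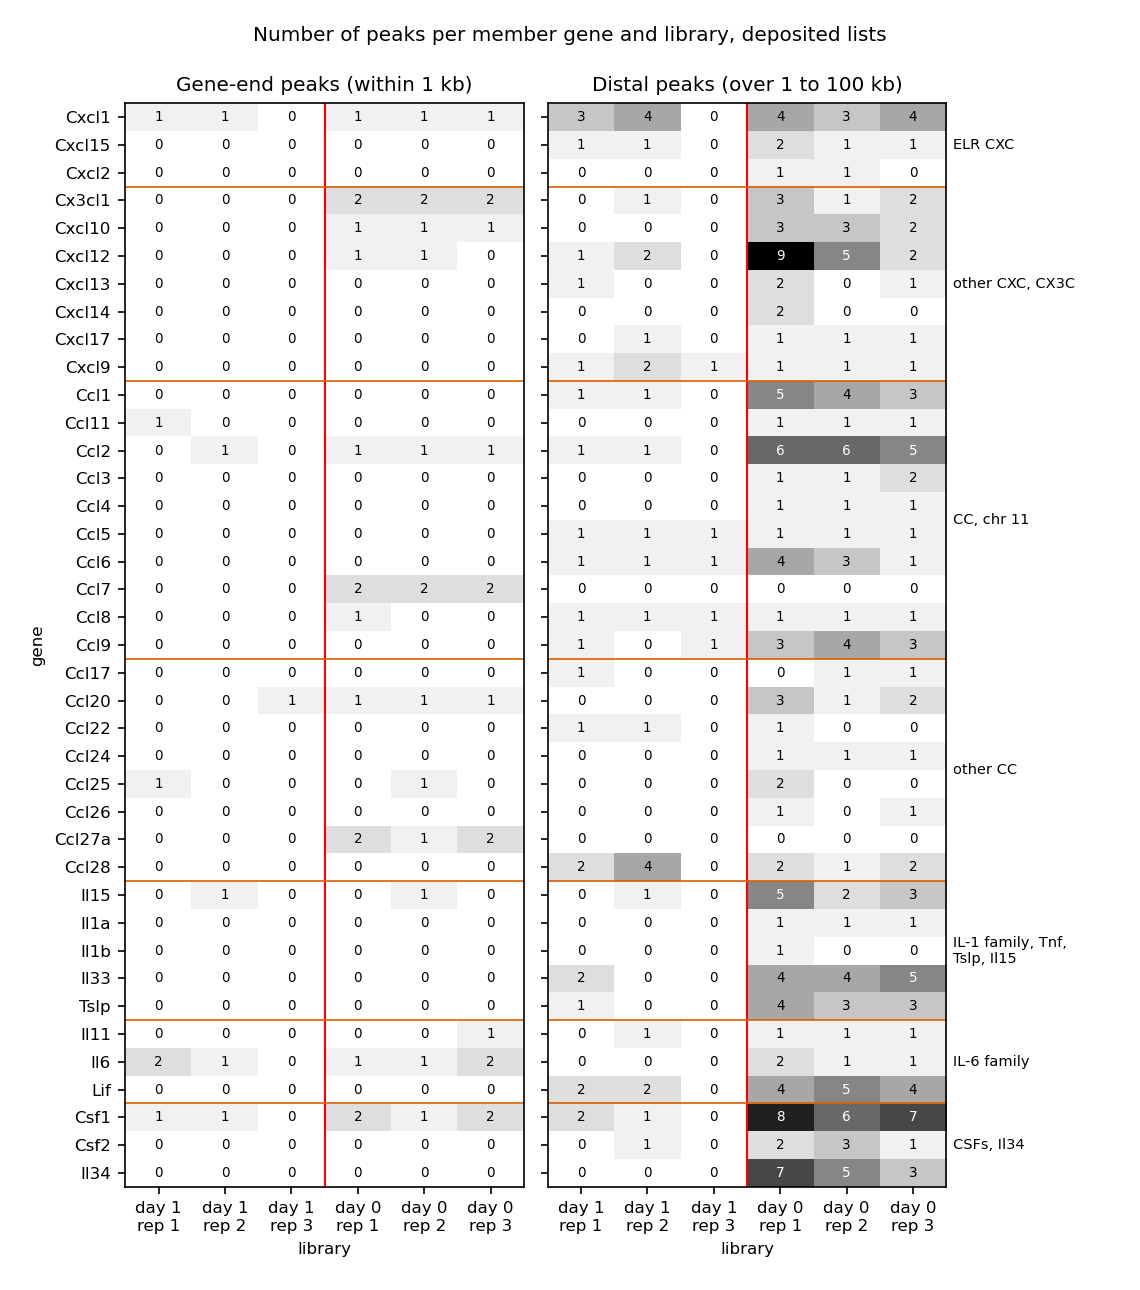
Number of gene-end peaks (left) and distal peaks (right) for each of the 39 members with a peak, by library, with day 1 left of the red line and day 0 right of it. Rows are grouped by role; day 1 replicate 3 has few peaks throughout, and Csf1, Il34, Ccl2 and Cxcl12 have most of their peaks at day 0.

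Among the CXC chemokines with the ELR motif, which attract neutrophils, none of the 11 regions was day 0 only, and all 4 regions called in every day 0 library were also called at day 1. Cxcl1, induced early by inflammatory signals, had most of them. The Cxcl1 start, at chr5:90890855-90891510, had fold enrichments of 6.55 and 6.31 in day 1 replicates 1 and 2, no peak in day 1 replicate 3, and 13.3, 10.8 and 11.4 in the day 0 libraries. Fold enrichment here and below is the authors' own ratio of fragments at the summit to the local background of the same library. It depends on depth, which was lower at day 1, so the values describe each library and were not tested between days. A distal region 15 kb from the Cxcl1 start, at chr5:90875921-90876946, had 6.79 and 4.81 in the same day 1 libraries and 16.3, 14.7 and 15 at day 0. It reached 75, 52 and 41 fragments at its summit at day 0, the tallest of the 143 regions in day 0 replicate 1. Cxcl1 as a whole had 4, 5 and 0 peaks at day 1 and 5, 4 and 5 at day 0, so 2 of the day 1 libraries lay within the range of day 0. In equal lists of 20069 peaks without day 1 replicate 3, the difference turned to 1.83 peaks more at day 1. A region nearest to Cxcl15, 29.6 kb from its far end at chr5:90832332-90833214, had 5.53 and 6.66 in day 1 replicates 1 and 2 and 15.5, 12.4 and 10.2 at day 0. It lies between the Cxcl15 and Cxcl1 genes. Cxcl2 had only 1 distal peak in each of day 0 replicates 1 and 2.

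Cxcl10 and Cx3cl1 had gene-end calls at day 0 and none at day 1. Cxcl10, an interferon-inducible attractant of T cells, had a start region at chr5:92348813-92349109 with no day 1 peak and day 0 fold enrichments of 15.6, 8.41 and 9.14. Near it, 20.4 kb from the start and inside the neighbouring gene Art3, the region chr5:92369043-92369494 also had no day 1 peak and values of 12.7, 12.7 and 11.3 at day 0. Cx3cl1, which encodes the membrane-bound chemokine fractalkine, had a start region at chr8:94772035-94772373 with no day 1 peak and 12.1, 8.85 and 6.95 at day 0. Its far end had no day 1 peak and 4.53, 7.57 and 5.65 at day 0, and a region 5.93 kb beyond it had 4.85 in day 1 replicate 2 alone and 8.64, 9.7 and 9.2 at day 0. The day 0 only pattern at the Cxcl10 and Cx3cl1 starts was not kept in equal lists, where the day 0 peak itself ranked among the strongest 12556 in only 1 of 3 libraries.

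Cxcl12, which encodes a homing signal for blood stem cells and lymphocytes, showed a mixed pattern. A region 1.5 kb before its start, at chr6:117166943-117167562, had 6.8 and 6.94 in day 1 replicates 1 and 2 and 7.69, 5.75 and 9.44 at day 0. A far distal region 86.9 kb from the gene had no day 1 peak and 10.7, 10.8 and 7.97 at day 0. In all, Cxcl12 had 1, 2 and 0 peaks at day 1 and 10, 6 and 2 at day 0, and the groups met at 2. Cxcl9, another interferon-inducible chemokine, had a region inside the gene, 2.16 kb from its far end, called in all 6 libraries, with 8.35, 8.17 and 8.56 at day 1 and 10.8, 10.9 and 8.68 at day 0.

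**Figure D4:**
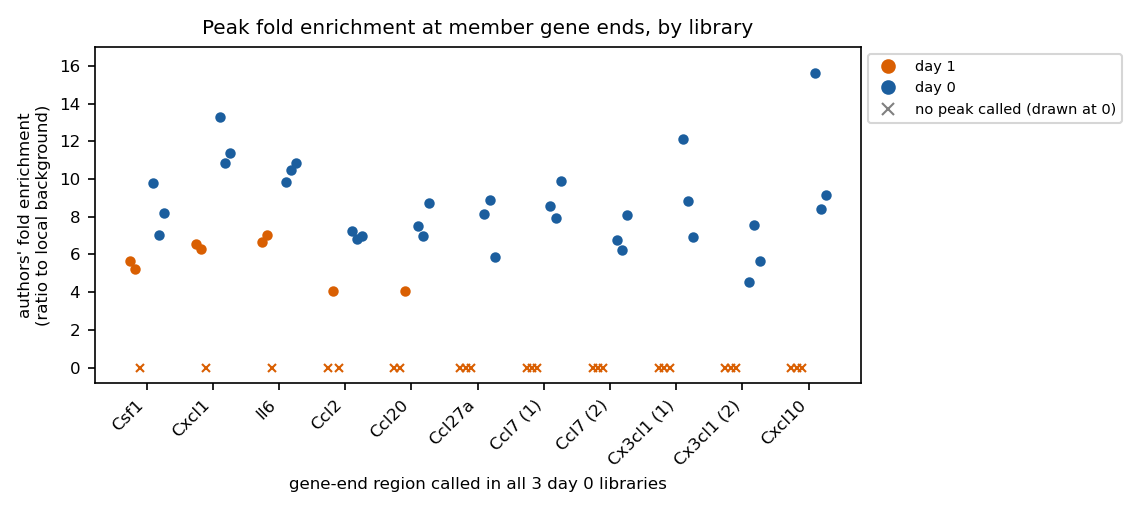
Authors' fold enrichment (ratio to local background) at the 11 member gene-end regions called in all 3 day 0 libraries, with day 1 libraries left of day 0 libraries in each column and crosses at 0 where no peak was called; (1) and (2) are 2 regions of the same gene in order of position. Day 1 replicate 3 had a peak only at Ccl20, and 6 regions had no day 1 peak.

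The CC chemokines of chromosome 11 held 10 of the 35 day 0 only regions among their 32 regions. Ccl2 and Ccl7, attractants of monocytes, lie side by side, and of the 9 regions nearest to them 8 were called in all 3 day 0 libraries and 6 of these in no day 1 library. At the lower end of Ccl2, chr11:82035343-82035632, a peak was called in day 1 replicate 2 alone, with a fold enrichment of 4.04, and in each day 0 library, with 7.23, 6.82 and 6.96. The day 0 summits there held 45, 37 and 28 fragments and the day 1 summit 6. A region 2.48 kb from Ccl2, chr11:82032855-82033399, had no day 1 peak and 9.85, 7.78 and 8.36 at day 0, and it was day 0 only in equal lists as well. Of the other Ccl2 regions, those 23.7, 20.2 and 15.9 kb away had no day 1 peak, and that 28.6 kb away had 5.96 and 7.02 in day 1 replicates 1 and 2 and 9.87, 11.1 and 9.69 at day 0. Ccl7 had regions at both ends, at chr11:82045517-82045912 with no day 1 peak and 8.55, 7.95 and 9.89 at day 0, and at chr11:82047840-82048341 with no day 1 peak and 6.76, 6.22 and 8.08 at day 0.

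Other regions on the same chromosome were called on both days. A region 22.9 kb from Ccl8, at chr11:82139361-82140037, was called in all 6 libraries, with 11.4, 16.6 and 10.7 at day 1 and 15.9, 17.8 and 20.1 at day 0. The region nearest to Ccl5, 4.38 kb away at chr11:83534641-83535198 inside the non-coding gene Gm32650, had 12.3, 10.6 and 8.04 at day 1 and 17.3, 21.1 and 18.2 at day 0. That nearest to Ccl6, 4.5 kb away, had 9.41, 8.88 and 5.24 at day 1 and 13.6, 11.7 and 11.5 at day 0. With the Cxcl9 region these were the 4 member regions shared by all 6 libraries, and none lay at a gene end. Ccl9 had a day 0 only region 9.01 kb from its far end, at chr11:83563774-83564174, with no day 1 peak and 15.1, 15.4 and 14.4 at day 0, the highest mean among the 35 (15 ± 0.535, SD, n = 3), and it was day 0 only in equal lists too. Ccl9 also had a region inside the gene with 6.66 and 6.04 in day 1 replicates 1 and 3 and 9.79, 13.2 and 10.1 at day 0. Ccl1, a T cell attractant, had a region 4.75 kb from its far end with 4.3 and 8.58 in day 1 replicates 1 and 2 and 7.02, 8.46 and 6.01 at day 0, and a day 0 only region 7.06 kb away. Ccl3 and Ccl4, attractants of macrophages and T cells, each had 1 distal day 0 only region, 21.6 and 14.9 kb away.

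**Figure D5:**
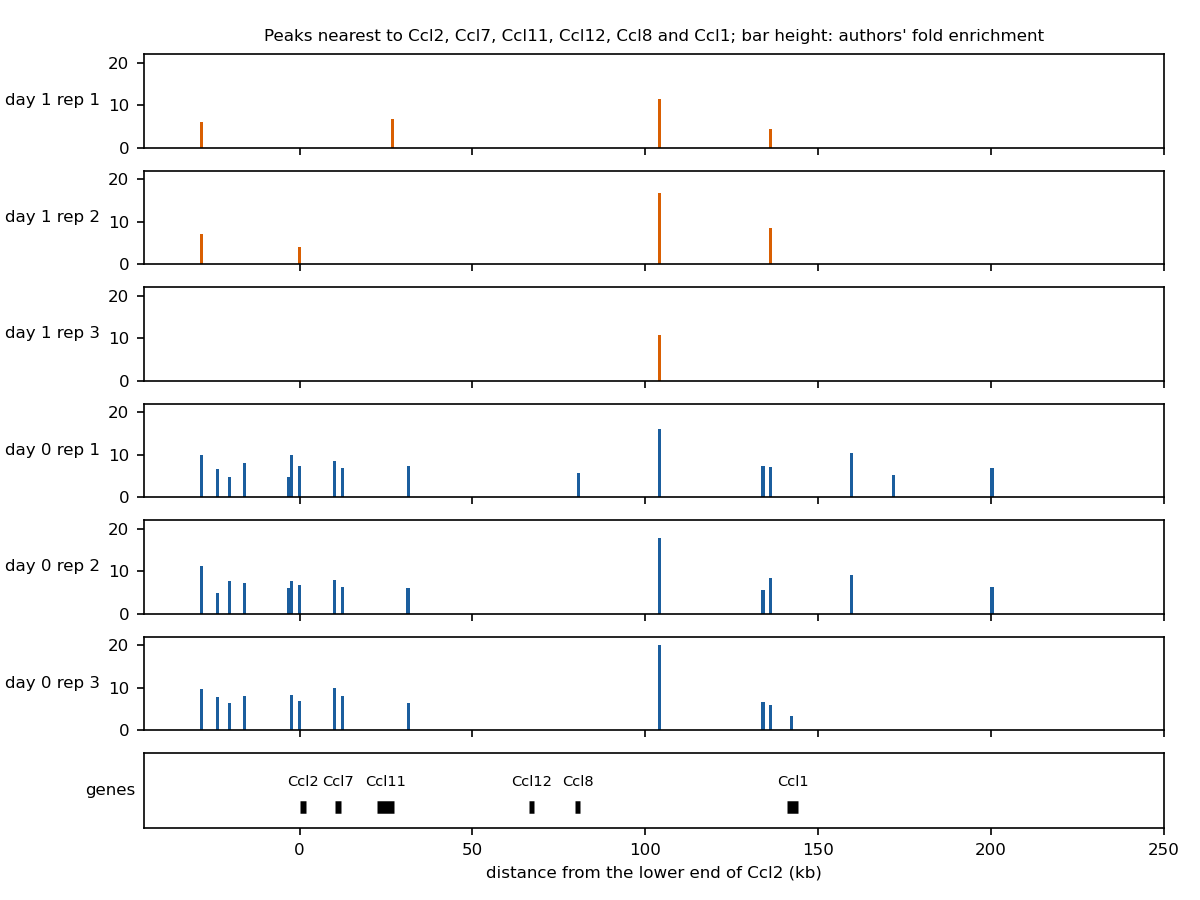
Regions nearest to Ccl2, Ccl7, Ccl11, Ccl12, Ccl8 and Ccl1 drawn by distance (kb) from the lower end of Ccl2, with 1 track per library, day 1 above day 0, bar height the authors' fold enrichment and black boxes the genes. The bars around Ccl2 and Ccl7 are mostly confined to the 3 day 0 tracks, and the region beyond Ccl8 is present in all 6.

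Of the other CC chemokines, Ccl28, which attracts lymphocytes to mucosal surfaces, had 2, 4 and 0 peaks at day 1 and 2, 1 and 2 at day 0. It held 2 of the 3 member regions called in 2 day 1 libraries and in no day 0 library. They lay at chr13:119617180-119617426, with 5.43 and 6.25 in day 1 replicates 1 and 2, and at chr13:119656858-119657284, with 6.28 and 7.89 in the same libraries, and neither had a day 0 peak. The third such region lay inside Ccl22, which encodes an attractant of regulatory T cells, at chr8:94748846-94749168, with 6.39 and 4.84 in day 1 replicates 1 and 2 and no day 0 peak. Since day 1 replicate 3 called none of the 3, they were not day 1 only, and they become so when that library is left out. Ccl28 also had a day 0 only region 3.83 kb before its start, with 5.21, 5.44 and 5.14 at day 0. Ccl20, an attractant of T helper and dendritic cells, had a far-end region with 4.06 in day 1 replicate 3 alone and 7.49, 7 and 8.72 at day 0. Ccl27a had 2 gene-end regions with no day 1 peak, of which 1 was called in all day 0 libraries, with 8.15, 8.89 and 5.88. Ccl24, an attractant of eosinophils, had a single region, 9.49 kb away, with no day 1 peak and 5.11, 4.43 and 7.18 at day 0. Ccl17, Ccl26, Cxcl13, Cxcl14 and Cxcl17 had 0 or 1 peak in each day 1 library and 0 to 2 in each day 0 library, with no region called in all libraries of a day. A start of Ccl25, an attractant of gut lymphocytes, had a peak in all 6 libraries, but the peak lay nearer to an end of Elavl1 in all except 1 day 1 and 1 day 0 library. At the remaining gene ends calls were scattered. Cxcl12 had 0 day 1 and 2 day 0 libraries with a call, Ccl8 and Il11 had 0 and 1, Il15 had 1 and 1, and Ccl11 had 1 and 0.

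The IL-6 family genes, whose products signal through the shared receptor Il6st, had 4, 4 and 0 peaks at day 1 and 8, 8 and 9 at day 0. The Il6 start was called on both days, at chr5:30012670-30013554, with 6.66 and 7.02 in day 1 replicates 1 and 2, no peak in day 1 replicate 3, and 9.85, 10.5 and 10.9 at day 0. A distal region 15.6 kb before the Il6 start had no day 1 peak and 5.75, 4.13 and 7.84 at day 0. Lif, which encodes leukaemia inhibitory factor, had no gene-end peak in any library, and had 2, 2 and 0 distal peaks at day 1 and 4, 5 and 4 at day 0. All 3 of its regions called in every day 0 library lay beyond its far end, and that 19.4 kb away had no day 1 peak. Those 27.5 and 35.8 kb away had 4.8 and 5.4, and 6.88 and 5.73, in day 1 replicates 1 and 2. At day 0 they had 10.8, 6.4 and 6.23, and 9.81, 7.43 and 7.88. Il11 had a region inside the gene with 5.01 in day 1 replicate 2 alone and 8.66, 6.47 and 4.8 at day 0.

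The IL-1 family genes, Tslp and Il15 together had 3, 2 and 0 peaks at day 1 and 15, 11 and 12 at day 0, and 7 of their 22 regions were day 0 only. Il33, which encodes an alarmin known from stromal cells of fat, had 2, 0 and 0 peaks at day 1 and 4, 4 and 5 at day 0. Of its 9 regions, 2 were day 0 only, 7.52 and 4.48 kb before the start, with 8.73, 6.86 and 6.71, and 7.61, 9.53 and 5.39, at day 0. Tslp, which encodes an alarmin of barrier tissues, had 1, 0 and 0 peaks at day 1 and 4, 3 and 3 at day 0, and its region inside the gene, chr18:32816575-32817105, had no day 1 peak and 8.39, 11.9 and 7.02 at day 0. Il1a had a single region, 20.6 kb before its start, with no day 1 peak and 8.66, 7.41 and 9.15 at day 0. Il1b had 1 peak in day 0 replicate 1 alone. Il15, a survival signal for natural killer cells, had 0, 2 and 0 peaks at day 1 and 5, 3 and 3 at day 0, and its region 35.2 kb away had no day 1 peak and 13.9, 10.4 and 7.84 at day 0.

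Csf1, the main macrophage growth factor, differed most in peak number among the members in the deposited lists. It had 3, 2 and 0 peaks at day 1 and 10, 7 and 9 at day 0, and Il34, whose product binds the same receptor as that of Csf1, had 0, 0 and 0 at day 1 and 7, 5 and 3 at day 0. The Csf1 start, at chr3:107760049-107760695, had 5.67 and 5.23 in day 1 replicates 1 and 2, no peak in day 1 replicate 3, and 9.78, 7.02 and 8.18 at day 0. Between 14.6 and 36.3 kb before that start, inside the non-coding gene Gm40121, lay 5 regions called in all day 0 libraries, of which 3 had no day 1 peak. Il34 had 3 day 0 only regions inside the gene, at chr8:110779869-110780448 with no day 1 peak and 12, 8.11 and 12.6 at day 0, and 16.9 and 12.2 kb from its nearest end with lower values. Csf2 had a region 32.4 kb from its far end, inside the non-coding gene Gm12223 at chr11:54214566-54215275, with 5.11 in day 1 replicate 2 alone and 14.3, 12.9 and 13.9 at day 0. In equal lists of 20069 peaks without day 1 replicate 3, the difference in mean peaks turned to 0.667 for Csf1, 0.667 for Il33 and 1 for Lif, so these counts depend on that setting.

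For the receptors and signalling genes in deposited lists, the numbers of called gene ends overlapped between the days, while their total peaks did not. In equal lists, called gene ends of NF-kB pathway genes numbered 15, 13 and 13 at day 1 and 11, 10 and 12 at day 0. JAK-STAT genes then had 9, 11 and 10 at day 1 and 7, 7 and 8 at day 0. Receptors had 6, 7 and 9 at day 1 and 7, 8 and 5 at day 0. All coding genes also had more called gene ends at day 1 in equal lists, as given above. In deposited lists, receptors had 37, 48 and 23 peaks in day 1 libraries and 127, 104 and 97 in day 0 libraries. NF-kB pathway genes had 44, 44 and 27 peaks in day 1 libraries and 86, 78 and 69 in day 0 libraries, and JAK-STAT genes 34, 43 and 22 in day 1 libraries and 66, 61 and 55 in day 0 libraries. The totals of all coding genes did not overlap either, with 18499, 21270 and 11803 in day 1 libraries and 48144, 36866 and 34593 in day 0 libraries. Fewer peaks in every day 1 than in every day 0 library were found for 61.3% of receptors with a peak, 47.6% of NF-kB pathway genes and 18.8% of JAK-STAT genes, against 46.2% of members and 32.7% of all coding genes with a peak. In equal lists these shares were 21.7% of receptors, 19% of NF-kB pathway genes and 13.3% of JAK-STAT genes. Members had 20.8% and all coding genes 6.51% there. In deposited lists, of 33 chemokine and cytokine receptors, 10, 10 and 9 had a gene-end peak at day 1 and 12, 10 and 9 at day 0. Il6st, Osmr, Il6ra, Il11ra1, Il1rap, Crlf2 and Tnfrsf1b were called in all 6 libraries, and Cx3cr1, the receptor of fractalkine, in 1 day 1 and 3 day 0 libraries. Ccr1 and Cxcr4 were called in 0 day 1 libraries and 1 day 0 library, and Csf2rb the other way round. Of 21 NF-kB pathway genes, 16, 16 and 13 had a gene-end peak at day 1 and 18, 16 and 17 at day 0, and 11 were called in all 6 libraries. Ikbkg, the regulatory subunit of the kinase complex, was called in 3 day 1 and 0 day 0 libraries, a pattern seen in 0.209% of coding genes with a gene-end peak, and Ikbkb, Irak1 and Irak4 were called in 1 day 1 and 3 day 0 libraries. With distal peaks counted as well, Ikbkg had 1 peak in each of the 6 libraries, so its total did not differ between days. Myd88, an adaptor of the pathway, was called in 0 day 1 and 2 day 0 libraries. Of 16 JAK-STAT genes, 11, 13 and 10 had a gene-end peak at day 1 and 13, 12 and 14 at day 0, and Ptpn11, a phosphatase of the pathway, was called in 1 day 1 and 3 day 0 libraries, Socs3, an inhibitor of it, in 0 and 2, and Stat6 in 2 and 3. A gene-end peak in any library was found for 15 of the 50 members, against 50.4% of coding genes. Of the 15, 9 were called in every day 0 library, against 72.2%, and 8 in at least 1 day 1 library, against 81.8%. Of the same 15 members 4, Ccl7, Ccl27a, Cxcl10 and Cx3cl1, were called in 3 day 0 and 0 day 1 libraries, against a background of 4.81%, and 0 showed the reverse. In equal lists this was so for 1 of 9 members, Ccl2, against 0.775%, and 0 showed the reverse, against 4.29%. Ccl2 was not among the 4 named before, since it had a day 1 call in deposited lists. In deposited lists the corresponding counts were 0 of 14 receptors, 0 of 19 NF-kB pathway genes, 0 of 14 JAK-STAT genes and 2 of 5 immune cell markers, Cd14 and Cd68, and the differences between these lists were not tested.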

How the data were processed

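ATAC-seq peak lists of 6 mouse libraries were used, 3 at day 1 and 3 at day 0. The submitters' processing notes name mm10 and, among other tools, Bowtie2 2.4.4 and MACS2 2.2.7.1. Peaks were called with MACS2 2.2.7.1 in each library on whole paired-end fragments without a control, at a q cutoff of 0.05, per the file headers, so a peak marks fragment density and not the transposase cut site. The deposited pileup is a signal in unscaled fragments at the summit. The deposited fold enrichment is a ratio, summit fragments over the local background. The deposited −log10 p and q values compare the summit with that background. Since the files hold peak calls and no read counts per region, no count model was fitted.

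Autosomal, X and Y peaks were assigned by summit with the GRCm38 gene table, in Python 3.11.15 with pandas 2.3.3 and numpy 2.4.6, and merged at 1 bp overlap. Merging and assignment were tested on simulated data. Single values per library were compared by exact permutation, which cannot pass 0.05 here. The members, lists and tests were chosen with earlier results of these data known. Named were all members with a peak, regions called in 3 libraries of a day, and up to 4 genes per other list with the largest difference between days. Myd88, tied with the last NF-kB gene, the Ccl28 and Ccl22 regions of 2 day 1 libraries, and the receptors and markers called in all or no libraries, were named after their values were seen. Same-numbered libraries of the 2 days were not paired by the labels.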

Additional observations from a re-analysis of the deposited data

How the results depend on the processing

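The fall in members with a gene-end peak, in distal member peaks and in member peaks per 10000 peaks kept its direction under all 12 alternatives tried. Several of these could not have turned it. The days did not overlap in deposited lists, so leaving out 1 library keeps the sign, and the replicate block uses the same difference. A gene end within 2 kb leaves the rate per 10000 peaks unchanged. Exact permutation of these libraries could not pass 0.05 under any alternative. The gene-end share of member peaks had no stable direction. It differed by 1.69 percentage points in deposited lists, and by -2.63 in equal lists, -6.58 at −log10 q of at least 5 and -8.72 in equal lists without day 1 replicate 3 at 20069 peaks, an alternative chosen after seeing the data; with a gene end within 2 kb it was 7.71, and leaving out single libraries gave 0.348 to 2.86. Day 0 only member regions were 35 in deposited lists, 6 in equal lists, 10 in equal lists without day 1 replicate 3, 59 with at least 2 of 3 libraries, and 36 to 49 when 1 library was left out. Day 1 only member regions were 0, and 3 without day 1 replicate 3 in either kind of list or with at least 2 of 3 libraries (0 to 3 over the libraries left out). The day 0 only regions of equal lists were not all among the 35. Members called at the gene end in every day 0 and no day 1 library were 4, against 1 in equal lists and 7 at −log10 q of at least 5. The 1 in equal lists, Ccl2, was not among the 4, so none of the 4 was kept there. For these counts, shares over all regions or coding genes were given only for deposited lists and for equal lists of all libraries. The other settings can change the counts of all genes as well, so whether members differ from other genes there was not tested. Among single genes, the direction turned for 3 of 39 in equal lists, Ccl1, Ccl20 and Ccl11 (each to 0.333 peaks). It turned for 10 of 39 in equal lists without day 1 replicate 3, namely Cxcl1 (1.83), Lif (1), Csf1 and Il33 (0.667), Il11, Ccl11, Ccl17, Cxcl13 and Cxcl17 (0.5) and Ccl25 (0.167). Without day 1 replicate 2 it turned for Ccl28 (0.333 in deposited lists, then -0.667). The causes of these changes were not tested. Deviations of same-numbered libraries correlated at -0.0365, 0.0544 and 0.00808 over 9136 shared regions. No sign of pairing by number was seen, but with 3 libraries per day such values cannot exclude it. With the replicate block the sign-flip p was 0.25 for members with a gene-end peak (-7.33), distal peaks (-61.7) and peaks per 10000 (-9.71), the smallest it can give, and 1 for the gene-end share (1.69). Depth limits what a missing day 1 peak shows.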
